A study of Mus musculus with 6 samples.

Results

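The genes described here are 43 genes of the interferon response and of antigen presentation, out of 35275 gene IDs in a table of RNA-seq read counts. They were chosen by name, with earlier results of these data known. Each matched 1 row of the table, and the rule itself uses no measured value. The cells were Melb-a, a melanoblast line from mouse skin of the C57BL/6J strain; a label also calls them melanocytes. They were grown with fibroblast growth factor and stem cell factor before the switch to differentiation medium. Every sample was differentiated in DMEM with 10% serum, 2 nM of the melanocortin receptor agonist NDP-alpha MSH and 200 nM of phorbol-myristate-acetate, which switches on protein kinase C. Over those 48 h, 3 samples received the vehicle DMSO and 3 received 10 µM iBRD9, a ligand of the bromodomain of the SWI/SNF subunit BRD9. All samples come from 1 cell line and 1 dose, no interferon is named in the labels, and both groups carried the hormone analog and the phorbol ester. The series calls the samples of a group independent without saying what separates them, so the p-values measure the spread between these samples, which may be technical. The question of the comparison was which transcripts differ when the BRD9 ligand is present during differentiation.

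Interferons are secreted proteins that alert cells to viruses. Type I interferons bind a receptor of the chains IFNAR1 and IFNAR2, and interferon gamma binds IFNGR1 and IFNGR2. The receptors activate the kinases JAK1, JAK2 and TYK2, which phosphorylate STAT transcription factors, and complexes with STAT2 bind the interferon-stimulated response element (ISRE) in front of their target genes. Some targets act directly against viruses, and others load peptides onto major histocompatibility complex (MHC) class I molecules, which show them to T cells. In melanocytes and melanoma cells these pathways are studied for their part in vitiligo and in recognition by T cells.

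The ISRE is a sequence that interferon target genes have in common, so it is shown first for the genes on which the results turn. The motif searched was GAAA, any 2 bases, GAAA, on both strands of the 250 bases before each start site in RefSeq promoters of build GRCm38.p6, with overlapping matches counted. Such windows were used for 34 of the 43 genes, and none for Mx1, Mx2, Usp18, Dhx58, Parp9, Parp14, Tap2, Nlrc5 and Cd74. At least 1 match lay in 10 of 18 interferon targets with a window, in 2 of 7 class I genes, in Stat2 and in 0 of 4 receptor genes, against 3.46% of all 27025 genes with a window (2.98% of 32851 windows). A match is a description of the letters and not a measured binding site. In the sequences below, written 5′ to 3′ along the gene, capitals mark the matches, and 12 bases are given on each side where the window allows.
Isg15 (chr4:156200863-156200908, - strand): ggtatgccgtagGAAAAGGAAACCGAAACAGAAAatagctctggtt
Gbp3 (chr3:142559987-142560026, + strand): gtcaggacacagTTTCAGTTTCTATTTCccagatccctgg
Irgm1 (chr11:48871423-48871462, - strand): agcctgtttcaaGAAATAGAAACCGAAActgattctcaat
Bst2 (chr8:71537575-71537614, - strand): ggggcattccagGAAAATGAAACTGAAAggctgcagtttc
Rsad2 (chr12:26456551-26456584, - strand): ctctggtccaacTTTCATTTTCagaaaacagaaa
Ifit3 (chr19:34583361-34583428, + strand): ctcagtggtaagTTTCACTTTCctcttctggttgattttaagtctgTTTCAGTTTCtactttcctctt
Ifit1 (chr19:34640773-34640825, + strand): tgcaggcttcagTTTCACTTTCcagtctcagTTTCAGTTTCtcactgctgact
Stat2 (chr10:128270264-128270297, + strand): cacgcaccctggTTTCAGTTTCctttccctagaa
B2m (chr2:122147536-122147569, + strand): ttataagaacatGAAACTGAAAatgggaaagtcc
Isg15, Gbp3, Irgm1 and Bst2 carried overlapping matches in tandem, Ifit1 and Ifit3 carried 2 separate matches each, and the others 1. The first 6 of these genes were lower with iBRD9, Ifit1 did not pass the test, Stat2 was higher and B2m was lower. Matches in Oas1a, Cxcl10, Gbp2 and H2-T23 are not printed. Of these, Cxcl10 and Gbp2 did not pass the test, Oas1a was not tested, and H2-T23 had few counts, higher with iBRD9. Of the interferon targets called lower, 6 of 10 with a window held a match, and of the targets that were tested and did not pass, 3 of 6 did. The motif TTC, any 3 bases, GAA of the gamma-activated site, a palindrome that can overlap an ISRE, was found in 3 of 18 targets, in Ifnar2 and in 0 of 7 class I genes, against 8.13% of all genes with a window.

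The libraries held 22846391 to 29680952 counts. Levels are given as CPM, counts scaled to the depth of the library with edgeR's TMM factors, on which 1 CPM was worth 23.04 to 30.8 counts. A gene is called when its adjusted p is under 0.05 in edgeR's quasi-likelihood test, adjusted over all 13602 tested genes. Of these, 60.7% were called, 29.8% higher and 30.9% lower with iBRD9, so a call by itself is common in these data. Of the tested genes, 68.0% had groups without overlap. Scaling by library size alone moved the median log2 fold change of all genes by 0.106 and the called share to 61.6% (36.8% higher and 24.9% lower); values under it are read against that shift. DMSO replicate 1 was the outlying DMSO library, with a chi-square per degree of freedom of 29.2 and 37.5 against replicates 2 and 3. Those 2 had 3.06 between themselves. Values without replicate 1 are given for the members whose call changed without it, all towards a fall, and for some lists (74.0% of genes were called without it). For other members, among them Nlrc5, Dtx3l and Parp14, replicate 1 was the highest DMSO library and made the fall larger. Melanocyte markers were abundant in every library (7 of 7 tested, with a summed level of 15315 to 17573 CPM with DMSO and 14732 to 16227 CPM with iBRD9), and they moved with the group: Tyr (-2.61), Sox10 (-0.92), Tyrp1 (-0.66) and Mlana (-0.62) fell, Dct rose (0.31), Pmel and Mitf did not pass, and their median log2 fold change was -0.62. Of 16 immune cell markers 12 stayed below 1 CPM in every library and 3, the pan-leukocyte gene Ptprc with Cd3e and Tyrobp, had 0 counts. Of the 16 markers, 5 were tested, and 2 were called higher and 1 lower with iBRD9 (median log2 fold change 0.43). The summed level of all 16 was 21.7 to 25.9 CPM with DMSO and 21.9 to 23.5 CPM with iBRD9. The summed level of 8 fibroblast markers was 76.1 to 100.5 CPM with DMSO and 132 to 146 CPM with iBRD9, mostly Dcn, and that of 5 endothelial markers was 82.8 to 129 and 52.8 to 55.8 CPM, mostly Vwf; Col3a1, Thy1, Pecam1, Cdh5 and Tek stayed below 1 CPM on average in both groups. Of 6 tested fibroblast markers, 2 were called higher and 1 lower with iBRD9 (median log2 fold change 0.15). Of 2 tested endothelial markers, 1 was called higher and 1 lower (median 0.49), so the lower sum does not hold for both. Of 6 keratinocyte markers 5 stayed below 1 CPM in every library, and the 1 tested did not pass. The part of these markers in the results was not tested. In bulk RNA, fewer cells that express a gene and less RNA per cell cannot be told apart. The interferon genes themselves were at or near 0: Ifnb1, Ifna1, Ifna2, Ifna5, Ifng, Ifnl2 and Ifnl3 had 0 counts in every library, which allows up to 0.130 CPM in a library, and Ifna4, Ifne and Ifnk had 2, 1 and 8 counts over all 6 libraries.

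Of the 43 genes, 40 had enough counts for the test. Oas1a, Ifi44 and H2-K1 did not. H2-T23 passed the filter on low counts only through the iBRD9 libraries and Cd74 only through the DMSO libraries, so a difference in these genes was built into their entry, and they are described by their counts with no test. The level of every tested gene in every library is drawn relative to the DMSO mean in the heat map.

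**Figure D1:**
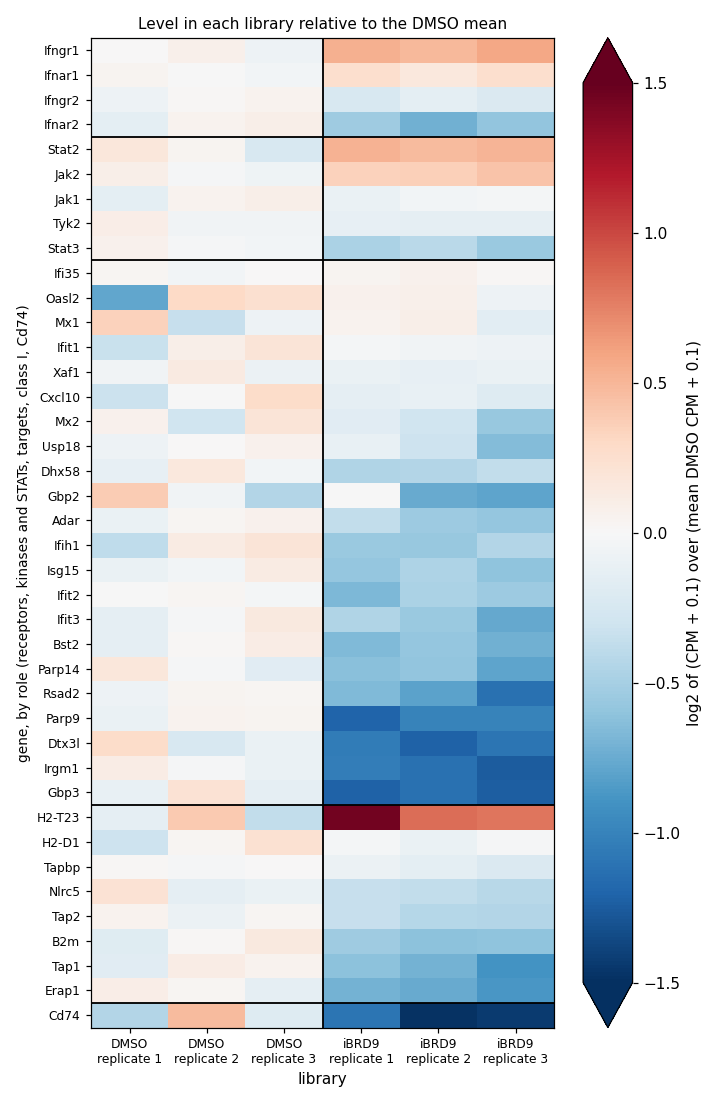
Level of each of the 40 tested genes (rows, by role) in each of the 6 libraries (columns), as log2 of CPM plus 0.1 over the mean DMSO CPM plus 0.1; blue is lower and red higher than the DMSO mean. The iBRD9 columns are blue for most interferon targets and class I genes and red for Ifnar1, Ifngr1, Jak2, Stat2 and H2-T23, and the DMSO replicate 1 column stands out for Oasl2.

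The receptor chains moved in opposite directions within each receptor. Ifnar1 rose and Ifnar2 fell in the type I receptor, and Ifngr1 rose and Ifngr2 fell in the gamma receptor. Ifnar2, the chain that binds type I interferon most tightly, stood at 30.1, 34.4 and 35.2 CPM in DMSO replicates 1 to 3 and at 22.9, 20.1 and 21.996 CPM in iBRD9 replicates 1 to 3. Every iBRD9 library was below every DMSO library (log2 fold change -0.62, SE 0.0881, adjusted p = 0.000521, edgeR). Its partner Ifnar1 stood at 129, 125 and 122 CPM with DMSO and 149.7, 139.7 and 149 CPM with iBRD9. The groups did not overlap, and the rise was small (log2 fold change 0.22, SE 0.0559, adjusted p = 0.00876). Ifngr1, the ligand-binding chain for interferon gamma, went from 53.9, 56.5 and 51.0 CPM to 77.9, 75.4 and 80.6 CPM. This was the largest rise among the receptors, again without overlap (log2 fold change 0.53, SE 0.0642, adjusted p = 0.000215). Ifngr2, the chain that brings JAK2 to the receptor, went from 43.1, 45.9 and 47.0 CPM to 38.4, 41.1 and 39.0 CPM (log2 fold change -0.20, SE 0.0653, adjusted p = 0.0271). The fall of Ifngr2 passed in the test over all libraries and was lost without DMSO replicate 2 (-0.20, adjusted p = 0.0812), DMSO replicate 3, iBRD9 replicate 1 or iBRD9 replicate 3, and with library size alone (-0.09, adjusted p = 0.210), with adjusted p from 0.000443 to 0.210 among the alternatives.

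The kinases and STATs also split. Jak2 and Stat2 rose, Stat3 fell, and Jak1 and Tyk2 did not pass the test. Stat2, the subunit that gives the type I interferon complex its activation domain, stood at 39.8, 36.5 and 29.9 CPM with DMSO and 50.8, 49.4 and 50.5 CPM with iBRD9. The iBRD9 libraries lay close together and above all DMSO libraries (log2 fold change 0.50, SE 0.0997, adjusted p = 0.00263). Jak2, the kinase bound to IFNGR2, went from 79.5, 74.0 and 71.5 CPM to 95.2, 96.4 and 101 CPM (log2 fold change 0.38, SE 0.0629, adjusted p = 0.00111). Stat3, which carries signals of the interleukin-6 family and can restrain interferon signalling, went from 151, 143 and 140.2 CPM to 104, 109 and 98.0 CPM (log2 fold change -0.48, SE 0.0626, adjusted p = 0.000337). Neither gene's groups overlapped. Jak1, the kinase that both interferon receptors use, stood at 209.9, 241 and 248 CPM with DMSO and 217, 226 and 229 CPM with iBRD9, and the groups overlapped (log2 fold change -0.06, SE 0.0718, adjusted p = 0.503). Without DMSO replicate 1, the lowest library for Jak1, it passed as lower (-0.14, adjusted p = 0.00569, with adjusted p from 0.00569 to 0.863 among the alternatives), and with library size alone its value was 0.049. Tyk2, the kinase bound to IFNAR1, stood at 31.9, 28.5 and 28.6 CPM and 27.3, 27.1 and 27.1 CPM (log2 fold change -0.13, SE 0.0720, adjusted p = 0.155), and its groups did not overlap.

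Interferon targets were lower or did not pass the test, and none was called higher (0 of 22 tested with edgeR, with DESeq2 and with limma-voom; 0 were higher at an unadjusted p under 0.05). Of the 24 targets, 22 were tested and 12 fell, 54.5% of those tested, against 30.9% called lower over all tested genes. Their median log2 fold change was -0.51, against 0.01 over all tested genes. In 15 of the 22 every iBRD9 library was below every DMSO library, which held for 34.1% of all tested genes. The count of 12 was the same with DESeq2, limma-voom, library size alone and the replicate block, and without DMSO replicate 1 it was 16, where 37.0% of all tested genes were called lower.

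The targets that fell at least 2-fold in the test over all libraries were Gbp3, Irgm1, Dtx3l and Parp9. Among the alternatives the smallest fall in log2 fold change was -0.97 for Dtx3l and -0.97 for Parp9, less than 2-fold. It was -1.13 for Gbp3 and -1.03 for Irgm1. A called fall of at least 2-fold was found in 5.46% of all tested genes. Gbp3, a guanylate-binding GTPase of cell-autonomous defence, stood at 3.26, 4.10 and 3.20 CPM with DMSO and 1.46, 1.56 and 1.44 CPM with iBRD9. It was low in all libraries, and every iBRD9 library was below every DMSO library (log2 fold change -1.24, SE 0.179, adjusted p = 0.000532, edgeR). Irgm1, an immunity-related GTPase that acts on vacuoles of pathogens and in autophagy, went from 24.3, 22.2 and 21.0 CPM to 10.9, 10.3 and 9.41 CPM (log2 fold change -1.14, SE 0.0963, adjusted p = 3.77e-05). Parp9 and Dtx3l encode partners in a complex of an ADP-ribosyltransferase family member and a ubiquitin ligase. Parp9 went from 20.8, 23.1 and 22.9 CPM to 9.61, 11.05 and 11.1 CPM (log2 fold change -1.08, SE 0.0943, adjusted p = 4.41e-05). Dtx3l went from 14.2, 9.90 and 10.9 CPM to 5.59, 4.96 and 5.40 CPM (log2 fold change -1.13, SE 0.152, adjusted p = 0.000378). Neither gene's groups overlapped, and DMSO replicate 1 was the lowest DMSO library for Parp9 and the highest for Dtx3l. The annotated exons of this pair overlap on opposite strands, over 9.40% of the Parp9 exon bases and 8.0% of those of Dtx3l in GENCODE M21, and the kit is given without a strand protocol, so reads there cannot be told apart. Parp14, a further ADP-ribosyltransferase, went from 18.4, 16.2 and 14.5 CPM to 10.6, 10.8 and 9.41 CPM (log2 fold change -0.67, SE 0.113, adjusted p = 0.00116). Its log2 fold change ran from -0.76 to -0.57 among the alternatives.

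**Figure D2:**
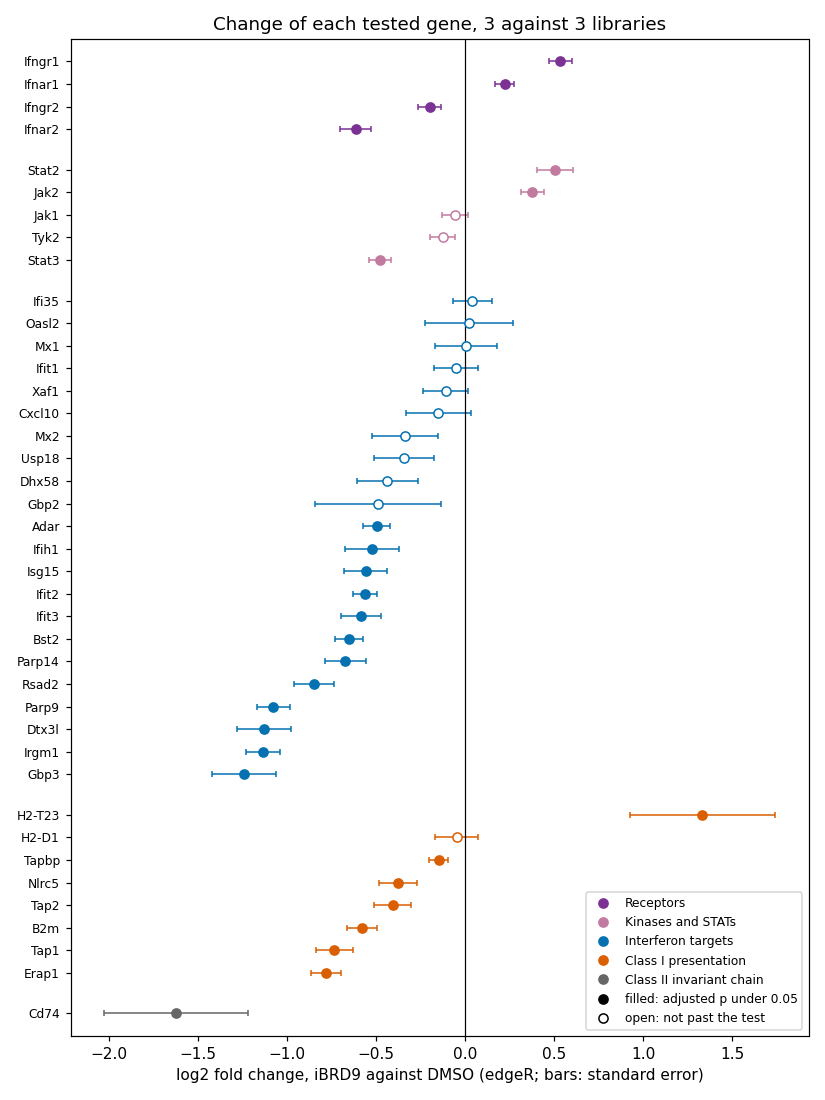
Log2 fold change of each of the 40 tested genes with iBRD9 against DMSO (x axis, from edgeR, with its standard error), grouped by role; filled points passed the test and open points did not. The interferon targets run from -1.24 (Gbp3) to 0.04 (Ifi35), and the class I genes from -0.78 (Erap1) upward; H2-T23 and Cd74, the outermost points, are near the floor, and their direction was fixed by the filter.

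Among the antiviral effectors, Rsad2, Bst2, Ifit2, Ifit3, Isg15 and Adar fell. Rsad2 (viperin), which makes a chain-terminating nucleotide, went from 39.9, 43.3 and 43.1 CPM to 26.5, 24.1 and 19.4 CPM (log2 fold change -0.85, SE 0.111, adjusted p = 0.000337). Bst2 (tetherin), which holds budding virus at the cell surface, went from 73.0, 81.1 and 86.9 CPM to 50.7, 53.5 and 48.7 CPM (log2 fold change -0.66, SE 0.0787, adjusted p = 0.000215). Both fell in every iBRD9 library below the lowest DMSO library. Ifit2, whose protein belongs to a family that binds viral RNA, went from 79.1, 81.0 and 78.0 CPM to 49.7, 57.1 and 54.5 CPM (log2 fold change -0.56, SE 0.0679, adjusted p = 0.000222). Ifit3, of the same family, went from 17.1, 18.4 and 20.7 CPM to 13.6, 12.7 and 10.98 CPM (log2 fold change -0.59, SE 0.113, adjusted p = 0.00229). Among the distinct 50-base words of Ifit3 transcripts, 51.2% also occur in its neighbour copy Ifit3b, so the split of reads between the copies is uncertain. Ifit3b, named here after its values were seen, fell too (log2 fold change -0.93, adjusted p = 0.00200). Ifit1, the family member that recognises foreign RNA caps, did not pass: it stood at 22.4, 29.9 and 32.2 CPM with DMSO and 27.7, 27.1 and 26.8 CPM with iBRD9 (log2 fold change -0.05, SE 0.125, adjusted p = 0.735). The DMSO libraries of Ifit1 lay on both sides of the iBRD9 libraries, with replicate 1 the lowest. Without that library Ifit1 was called lower (-0.20, adjusted p = 0.00915, with adjusted p from 0.00915 to 0.941 among the alternatives), and its sign turned with library size alone (0.058) and without DMSO replicate 3 (0.049).

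Isg15, a ubiquitin-like modifier attached to proteins after interferon, went from 6.29, 6.55 and 7.38 CPM to 4.48, 4.84 and 4.39 CPM (log2 fold change -0.56, SE 0.122, adjusted p = 0.00427). Usp18, the protease that removes ISG15 and blocks signalling at IFNAR2, stood at 3.95, 4.18 and 4.34 CPM and 3.83, 3.32 and 2.62 CPM (log2 fold change -0.34, SE 0.168, adjusted p = 0.107). Its groups did not overlap, although it did not pass; without DMSO replicate 1 it did (-0.38, adjusted p = 0.0458, with adjusted p from 0.0458 to 0.308 among the alternatives). Adar, the RNA-editing deaminase that marks self double-stranded RNA, went from 104, 113 and 117 CPM to 86.1, 76.4 and 74.3 CPM (log2 fold change -0.50, SE 0.0759, adjusted p = 0.000721). Its exons overlap, over 16.8% of their bases, Chrnb2 on the other strand.

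**Figure D3:**
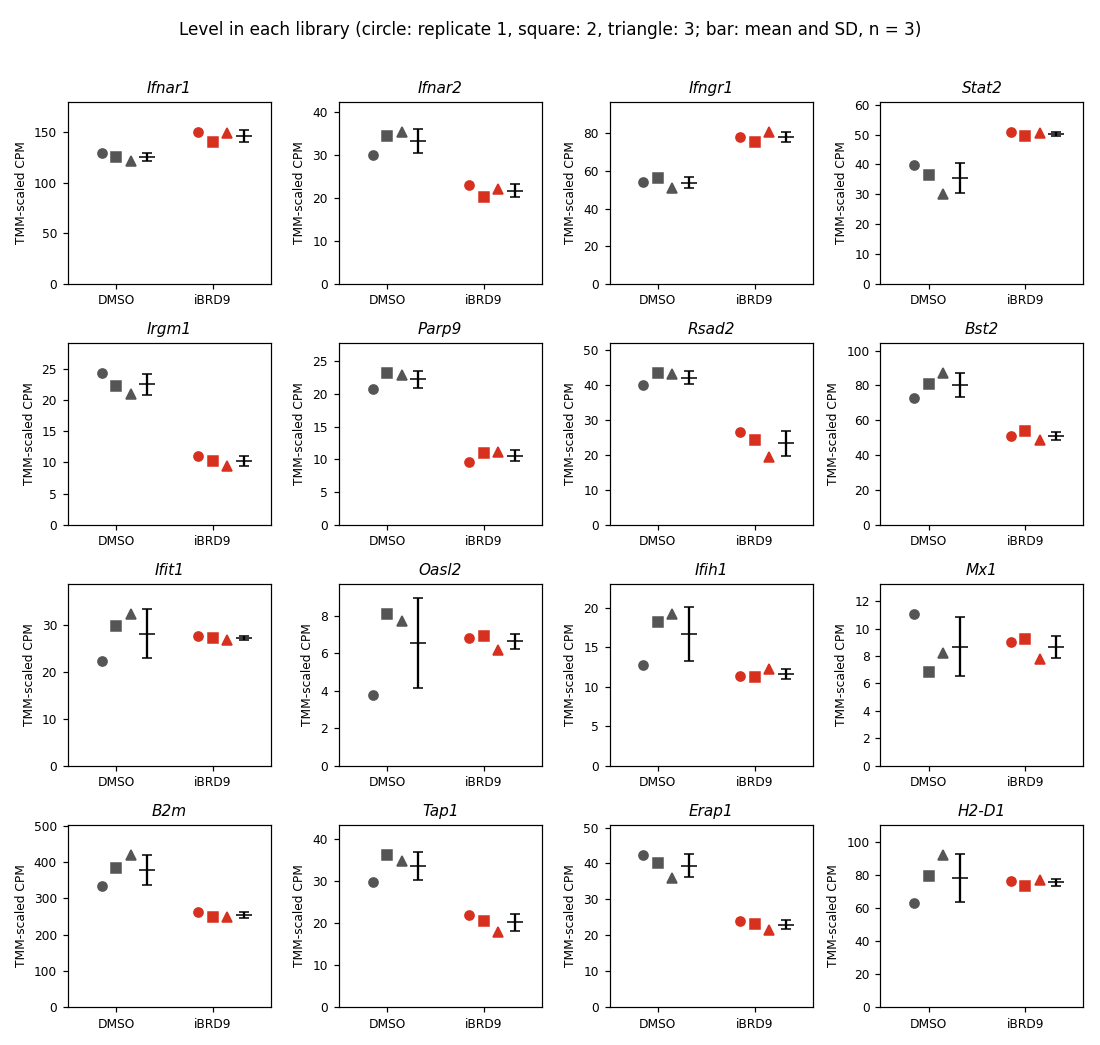
Level of 16 of the genes in each library (y axis, TMM-scaled CPM from 0; circle, square and triangle are replicates 1, 2 and 3; bars are the mean and SD, n = 3). The groups are separate for Irgm1, Parp9, Rsad2, Bst2, B2m, Tap1 and Erap1, while DMSO replicate 1 lies away from the other DMSO libraries for Ifit1, Oasl2, Ifih1 and H2-D1.

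The cytosolic RNA sensors among the targets were lower or just outside the threshold. Ifih1 (MDA5), which detects long double-stranded RNA, stood at 12.8, 18.2 and 19.2 CPM with DMSO and 11.4, 11.2 and 12.3 CPM with iBRD9 (log2 fold change -0.52, SE 0.150, adjusted p = 0.0154). DMSO replicate 1 lay much nearer to the iBRD9 libraries than to the other DMSO libraries. The call was lost without DMSO replicate 2 (-0.47, adjusted p = 0.0552), iBRD9 replicate 1 or iBRD9 replicate 2, with adjusted p from 2.09e-07 to 0.0603 among the alternatives. Dhx58 (LGP2), a regulator of these sensors, stood at 2.26, 2.76 and 2.403 CPM and 1.79, 1.801 and 1.90 CPM. Its groups did not overlap and it just missed the threshold (log2 fold change -0.44, SE 0.173, adjusted p = 0.0545); without DMSO replicate 1 it passed (-0.51, adjusted p = 0.0278, with adjusted p from 0.0278 to 0.178 among the alternatives).

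The remaining targets did not pass the test. Oasl2, a 2′-5′-oligoadenylate synthetase-like protein, stood at 3.78, 8.08 and 7.76 CPM with DMSO and 6.82, 6.92 and 6.21 CPM with iBRD9 (log2 fold change 0.02, SE 0.250, adjusted p = 0.946). DMSO replicate 1 lay below every other library, and without it Oasl2 passed as lower (-0.26, adjusted p = 0.0440, with adjusted p from 0.0440 to 1.00 among the alternatives). Mx1, a dynamin-like antiviral GTPase, showed the opposite spread, at 11.03, 6.82 and 8.22 CPM with DMSO and 9.03, 9.24 and 7.77 CPM with iBRD9 (log2 fold change 0.00, SE 0.175, adjusted p = 0.989). Its relative Mx2 stood at 4.04, 3.12 and 4.43 CPM and 3.41, 3.12 and 2.58 CPM (log2 fold change -0.34, SE 0.185, adjusted p = 0.144). The groups of both overlapped. The sign of the Mx1 value changed without a filter and without any 1 of DMSO replicates 2 and 3 or iBRD9 replicates 1 and 2 (-0.15 to -0.0020). Ifi35, which binds the protein NMI, varied little, at 5.69, 5.40 and 5.61 CPM and 5.75, 5.80 and 5.62 CPM (log2 fold change 0.04, SE 0.109, adjusted p = 0.760). Xaf1, a pro-apoptotic interferon target, stood at 4.64, 5.32 and 4.55 CPM and 4.51, 4.44 and 4.52 CPM (log2 fold change -0.11, SE 0.126, adjusted p = 0.474). The chemokine gene Cxcl10, which attracts T cells, stood at 2.65, 3.31 and 4.05 CPM and 3.02, 3.08 and 2.91 CPM (log2 fold change -0.15, SE 0.182, adjusted p = 0.491). Gbp2, a relative of Gbp3, was near 1 CPM, at 1.26, 0.907 and 0.674 and 0.942, 0.520 and 0.507 CPM (log2 fold change -0.49, SE 0.355, adjusted p = 0.256).

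Both untested targets were at the floor. Oas1a, a 2′-5′-oligoadenylate synthetase, had 9, 14 and 15 counts with DMSO and 5, 6 and 2 counts with iBRD9, and 57.6% of its 50-base words occur in the copies Oas1g and Oas1b. Ifi44 had 5, 4 and 1 counts and 3, 1 and 5 counts.

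Interferon targets outside the 43 genes, from a list of 75 of which 72 were in the table, were also lower more often than higher. Of the 50 tested, 25 fell and 9 rose (50% and 18%, against 30.9% and 29.8% of all tested genes; median log2 fold change -0.40). Slfn8 and Apol9a, named for this reason alone, are among the falls and entered only through the DMSO libraries. Oas1g, named for a like reason, is a fall that passed the filter in 3 DMSO libraries and 1 iBRD9 library. All of them remain in the count of 25 and in the 50%. The falls of Slfn8 and Apol9a were built into their entry and add no support to that share. Ifitm3, which blocks virus entry at endosomes, went from 132, 159 and 165 CPM to 25.8, 26.7 and 22.8 CPM (log2 fold change -2.60, SE 0.103, adjusted p = 1.77e-06), a larger fall than that of any tested gene among the 24 targets. Oasl1 went from 5.51, 8.40 and 9.15 CPM to 2.66, 2.60 and 2.49 CPM (log2 fold change -1.57, SE 0.202, adjusted p = 0.0003). The lysosomal thiol reductase gene Ifi30, which unfolds antigens, rose from 3.13, 1.58 and 2.23 CPM to 6.49, 6.72 and 6.59 CPM (log2 fold change 1.52, SE 0.215, adjusted p = 0.000491). Oas1b, a further synthetase-family gene, rose from 1.74, 2.17 and 2.11 CPM to 3.96, 4.04 and 3.84 CPM (log2 fold change 0.97, SE 0.155, adjusted p = 0.000888).

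Genes of nucleic acid sensors, Toll-like receptors and the adaptors and kinases behind them moved in both directions. Of 18 tested, 8 fell and 3 rose (44.4% and 16.7%, against 30.9% and 29.8% of all tested genes). Tlr4, whose product senses endotoxin and not nucleic acid (92.4 ± 10.4 to 35.6 ± 2.31 CPM, SD, n = 3; log2 fold change -1.37, SE 0.0949, adjusted p = 1.54e-05) and the adaptor gene Myd88 (-0.87, adjusted p = 0.000146) had the largest falls. The kinase genes Ikbke (0.58, adjusted p = 0.00870) and Tbk1 (0.29, adjusted p = 0.0333), which phosphorylate IRF3, had the largest rises. Without DMSO replicate 1, 5 of these genes rose and 9 fell, where 37.0% of all tested genes rose and 37.0% fell.

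Of 17 tested inhibitors of JAK-STAT signalling 5 rose and 5 fell, shares near those of all tested genes. The ubiquitin ligase adaptor genes Socs6 (177 ± 22.5 to 86.8 ± 4.51 CPM, SD, n = 3; -1.02, adjusted p = 5.97e-05) and Socs4 (-0.70, adjusted p = 0.000118) fell the most, and Sh2b3 (0.97, adjusted p = 0.000184) and the STAT3 inhibitor gene Pias3 (0.71, adjusted p = 0.00018) rose. With library size alone, where 36.8% of all tested genes were called higher, 9 of these genes rose. Among 9 tested genes of other JAK-STAT receptors and factors, 5 fell and 3 rose (55.6% and 33.3%, the second near the 29.8% of all tested genes and the first above 30.9%). Il10rb, the chain shared by the receptors of interferon lambda and interleukin-10, fell from 83.7, 85.3 and 91.4 CPM to 40.3, 42.4 and 39.3 CPM (log2 fold change -1.09, SE 0.0647, adjusted p = 7.68e-06). Stat6, which acts in interleukin-4 signalling, fell (179 ± 16.6 to 70.7 ± 0.955 CPM, SD, n = 3; -1.34, adjusted p = 6.26e-06). The leukemia inhibitory factor receptor gene Lifr rose from 24.3, 14.0 and 11.9 CPM to 87.4, 84.2 and 93.9 CPM (log2 fold change 2.41, SE 0.223, adjusted p = 5.87e-05), and Jak3 rose (1.01, adjusted p = 0.000816). The count of falls was 3 with library size alone and without DMSO replicate 3, iBRD9 replicate 2 or iBRD9 replicate 3.

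Class I presentation was lower at several of its steps. Of the 9 genes, H2-K1 was not tested and H2-T23 entered only through the iBRD9 libraries. Of the other 7, 6 fell and H2-D1 did not pass, where 30.9% of all tested genes were called lower. The count of falls was 7 without DMSO replicate 1 (37.0% of all tested genes lower), 4 with library size alone (24.9%) and 4 without iBRD9 replicate 3.

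For the molecule itself, B2m, the light chain that every class I molecule needs, stood at 334, 383 and 419 CPM with DMSO and 263, 248 and 249 CPM with iBRD9. The iBRD9 libraries lay close together below all DMSO libraries, of which replicate 1 was the lowest (log2 fold change -0.58, SE 0.0839, adjusted p = 0.000545). H2-D1, a classical heavy chain, stood at 62.7, 79.3 and 91.6 CPM with DMSO and 76.3, 72.8 and 76.9 CPM with iBRD9. The DMSO libraries spread to both sides of the iBRD9 libraries (log2 fold change -0.05, SE 0.122, adjusted p = 0.748). Without DMSO replicate 1 it was called lower (-0.19, adjusted p = 0.00384, with adjusted p from 0.00384 to 0.898 among the alternatives), and its value was 0.062 with library size alone and 0.077 without DMSO replicate 3. H2-K1, the other classical heavy chain named among the genes, had 0, 1 and 0 counts with DMSO and 2, 0 and 1 counts with iBRD9, where H2-D1 had 1444 to 2349. Of the H2-K1 50-base words, 9.63% occur in transcripts of other genes, with 12.8% for H2-D1, and no exon of H2-K1 overlaps that of another gene in GENCODE M21. The cause of the low H2-K1 counts was not tested. H2-T23, the nonclassical molecule Qa-1, had 5, 9 and 4 counts with DMSO and 26, 13 and 12 counts with iBRD9. It stayed below 1 CPM in every library, every iBRD9 library was above every DMSO library, and no test is given because its entry fixed the direction.

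For peptide supply, Tap1 and Tap2 encode both chains of the transporter that carries peptides into the endoplasmic reticulum. Tap1 went from 29.8, 36.2 and 34.8 CPM to 21.9, 20.6 and 18.0 CPM (log2 fold change -0.74, SE 0.104, adjusted p = 0.000477). Tap2 went from 9.03, 8.16 and 8.89 CPM to 6.82, 6.44 and 6.38 CPM (log2 fold change -0.41, SE 0.103, adjusted p = 0.00895). Both fell without overlap of the groups, and in each group the level of Tap1 was above that of Tap2 per kilobase of exon (6.14 and 2.30 CPM per kb with DMSO). Erap1, the peptidase that trims peptides to length, went from 42.2, 40.0 and 35.8 CPM to 24.03, 23.2 and 21.4 CPM (log2 fold change -0.78, SE 0.0844, adjusted p = 0.000125). Erap1 exons overlap, over 11.5% of their bases, Cast on the other strand, a gene with more reads, and reads there cannot be told apart. Tapbp (tapasin), which bridges the transporter and the class I molecule, went from 143, 139.6 and 142 CPM to 133, 128 and 122 CPM (log2 fold change -0.15, SE 0.0547, adjusted p = 0.0417). This small fall was lost in 9 of 14 alternatives, among them the replicate block (-0.15, adjusted p = 0.0711), library size alone (-0.04, adjusted p = 0.513), and leaving out any 1 of DMSO replicates 2 and 3 and iBRD9 replicates 2 and 3 (adjusted p from 0.00448 to 0.513 among the alternatives); 29.0% of its exon bases overlap those of other genes.

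Nlrc5, the transactivator that drives class I genes from their promoters, stood at 24.5, 19.2 and 19.7 CPM with DMSO and 16.6, 16.3 and 15.8 CPM with iBRD9. Every iBRD9 library was below every DMSO library (log2 fold change -0.38, SE 0.107, adjusted p = 0.0143). DMSO replicate 1 was the highest library, and the log2 fold change ran from -0.45 to -0.27 among the alternatives. The call was lost without iBRD9 replicate 3 (-0.36, adjusted p = 0.0531) and with library size alone (-0.28, adjusted p = 0.0719), with adjusted p from 0.00476 to 0.0719 among the alternatives.

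Of 13 tested class I genes and helpers outside this set, 5 fell and 3 rose (38.5% and 23.1%, near the 30.9% and 29.8% of all tested genes). H2-Q4, a further heavy chain of the family, rose from 8.94, 9.46 and 8.85 CPM to 14.4, 15.8 and 14.5 CPM (log2 fold change 0.71, SE 0.0903, adjusted p = 0.000282), and 36.4% of its 50-base words are shared with other genes. The endosomal peptidase gene Lnpep, used in cross-presentation, rose from 99.3, 82.6 and 82.7 CPM to 151, 142 and 143 CPM (log2 fold change 0.72, SE 0.0812, adjusted p = 0.000157). Mr1, which presents vitamin metabolites (-0.57, adjusted p = 0.0172), and the tapasin relative Tapbpl (-0.41, adjusted p = 0.0348) fell. The falls were fewer in most alternatives: 1 was left with library size alone and without iBRD9 replicate 2, 2 without DMSO replicate 2 or iBRD9 replicate 1, 3 with the replicate block and without DMSO replicate 3, and 0 without iBRD9 replicate 3, where 3 genes were called in all.

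The class II chains and the invariant chain were low. Cd74, the invariant chain that guards the class II groove, had 12, 27 and 15 counts with DMSO and 9, 5 and 5 counts with iBRD9. It was near 1 CPM or below in every library and lower in all iBRD9 libraries, a direction that its entry through the DMSO libraries fixed, so no test is given. Of 6 tested genes from a list of 13 class II genes, 3 rose (50% against 29.8% of all tested genes) and 0 fell, against 30.9% (0 also at an unadjusted p under 0.05 in edgeR, and 0 with DESeq2 and limma-voom). H2-DMa, a chain of the peptide exchange factor, rose from 2.69, 2.41 and 2.19 CPM to 6.46, 5.80 and 6.21 CPM (log2 fold change 1.34, SE 0.140, adjusted p = 0.000103), and the regulatory factor gene Rfxap rose (0.55, adjusted p = 0.000371). The class II chains H2-Aa, H2-Ab1 and H2-Eb1, named after their values were seen, had at most 2 counts in any library and were not tested.

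**Figure D4:**
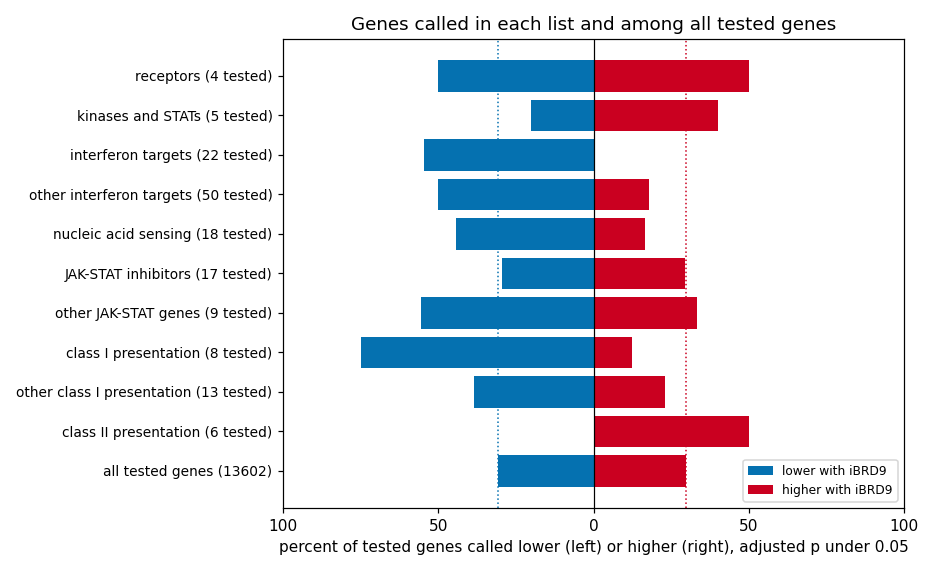
Percent of the tested genes of each list called lower (left) or higher (right) with iBRD9 at an adjusted p under 0.05; dotted lines mark the shares of all 13602 tested genes, 30.9% and 29.8%. The bars of interferon targets (54.5%) and class I genes reach past the dotted line on the left, the class I bar on the right is H2-T23 alone, whose direction the filter fixed, and the inhibitors of JAK-STAT signalling sit near both lines. The left bar of other interferon targets includes Slfn8 and Apol9a, whose direction the filter fixed.

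Within the set the levels spanned a wide range, compared here per kilobase of merged exon in GENCODE M21. With DMSO, B2m led at 440.5 CPM per kb, followed by Bst2 at 88.9, Tapbp at 39.0, Jak1 at 32.3 and H2-D1 at 30.2 CPM per kb. Among the interferon targets Ifit2 (20.2) and Adar (13.7 CPM per kb) came next after Bst2, and Isg15 stood at 8.91 CPM per kb. The summed level of the 24 targets was 476 to 519 CPM over the DMSO libraries and 323 to 348 CPM over the iBRD9 libraries. That of the 9 class I genes was 645 to 752 and 510.1 to 542 CPM, of which B2m alone held 334 to 419 and 248 to 263 CPM. Neither sum overlapped between the groups, and in both DMSO replicate 1 was the lowest DMSO library. The sum of the 4 receptor genes was 255 to 262 CPM with DMSO and 276 to 291 CPM with iBRD9, with Ifnar1 and Ifngr1 higher and the other two lower.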

How the data were processed

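RNA was measured in 6 libraries, 3 per group, by mRNA sequencing. The deposited values are raw read counts per Ensembl gene ID, 1 column per library; per the submitters' processing notes, CASAVA 1.8.2, Bowtie2 2.4.5 and build GRCm39 were used. The counting program, annotation release and strand setting were not given in the sources used here.

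Counts were tested with edgeR 4.0.16 in R 4.3.3 (TMM scaling, quasi-likelihood F-test, robust, two-sided) on genes kept by its filter at a minimum count of 10, with Benjamini-Hochberg adjustment over all 13602 tested genes and a threshold of 0.05. The edgeR steps were also run on simulated counts with few changed genes, balanced in direction, and no outlying library. These data differ in having most genes called and an outlying DMSO library, so that run does not check the calls made here. Of 35275 IDs, 785 had no symbol and held 0.0899% of the counts. DESeq2 1.42.0, limma-voom (limma 3.58.1), other scalings, filters and thresholds, a replicate block and leaving out each library were alternatives. Depth sets the precision: limits from a count of 0 use 3 counts and cover counting error only. Gene structure came from GENCODE M21 (GRCm38), a build other than that of the counts, so it gives names, exon lengths, overlaps and shared 50-base words only.

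The 43 genes and the other lists were chosen with earlier results of these data known. Every one of the 43 is named; from each other list up to 2 called higher and 2 called lower genes with the largest fold change are named, where their log2 CPM averaged at least 1.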

Additional observations from a re-analysis of the deposited data

How the results depend on the processing

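Over 40 tested genes and 14 alternatives, 557 values were obtained; 513 kept their direction and side of the threshold, 26 lost the call, 5 gained it and 13 changed sign, of which 1 (Oasl2 without DMSO replicate 1) also gained a call, and 27 genes kept both in every alternative. These totals include H2-T23 (9 values kept, 4 lost the call) and Cd74 (all 13 kept, so it is among the 27). The filter fixed the direction of both, so their entries add no support to the totals. Where a value changed, the cause was not tested. Genes called over the whole table numbered 6072 at an adjusted p under 0.01 and 6865 to 10311 with 1 library left out. Interferon targets called lower numbered 11 to 16 with 1 library left out and 11 or 12 otherwise. Receptors called lower numbered 1 with library size alone and at an adjusted p under 0.01, and 1 to 2 with 1 library left out; kinases and STATs called lower numbered 1 to 2 there. Class I genes called numbered 4 at an adjusted p under 0.01, and those called higher (H2-T23 alone, whose direction the filter fixed) 0 with DESeq2, with 1 CPM required in 3 libraries and at an adjusted p under 0.01, and 0 to 1 with 1 library left out. Cd74 was not tested, and so not called (0), with 1 CPM required in 3 libraries. Other class I genes called numbered 4 with library size alone, 3 at an adjusted p under 0.01 and 3 to 10 with 1 library left out.

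Log2 fold changes that changed sign were those of Jak1 (0.049), Ifit1 (0.058) and H2-D1 (0.062) with library size alone and of Mx1 without a filter (-0.0020). With 1 library left out Ifit1 ran from -0.20 to 0.049, Oasl2 from -0.26 to 0.20, Mx1 from -0.15 to 0.20, Cxcl10 from -0.30 to 0.0020 and H2-D1 from -0.19 to 0.077. Genes near 1 CPM (Gbp2, H2-T23, Cd74) are limited by depth.

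With the replicate number as a block, 7937 genes and 12 interferon targets were called. Class I genes called lower numbered 5, since Tapbp lost its call (-0.15, adjusted p = 0.0711, edgeR). The 1 called higher was H2-T23, whose direction the filter fixed. Deviations of libraries with the same number correlated across 13602 genes at r = 0.118, 0.0599 and 0.0248, positive but weak. Pairs with different numbers ran from -0.0996 to 0.0469. DMSO replicates 1 and 2 correlated best with their own number and DMSO replicate 3 with iBRD9 replicate 2 (0.0469). Whether samples with the same number share a batch was not tested.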
